A study of Mus musculus with 8 samples.

Results

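Transforming growth factor beta (TGF-beta) is a cytokine that cells release in a latent form and that must be freed before it can signal. Regulatory T cells (Treg), the Foxp3-expressing T cells that restrain immune responses, hold the latent form on their surface through the protein GARP, and the integrin alpha-v beta-8 releases the active cytokine. The active cytokine joins a type II and a type I receptor kinase, the type I receptor phosphorylates SMAD proteins that carry the signal to DNA, and the pathway induces its own inhibitors. The 10 genes described here cover these steps and were chosen by function from 21887 protein-coding genes of the mm10 RefSeq annotation. They encode the ligand (Tgfb1), its activation (Lrrc32, which encodes GARP, Itgav and Itgb8), the receptors (Tgfbr1 and Tgfbr2), the signal carrier Smad3, the inhibitors Smad7 and Ski, and Itgae, which encodes CD103, an integrin chain that TGF-beta induces in T cells. Each gene was described over its annotated span with 5 kb on both sides, called its window below.

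All libraries were made from sorted Treg, and the mice were C57BL/6 and 8 to 12 weeks old. The histone mark H3K9me2 (dimethyl lysine 9 of H3), which is found in silenced regions, was mapped in tumour Treg, in 3 libraries of the genotype JMJD1CWT (WT) and 3 of the genotype JMJD1CTregcKO (cKO). Jmjd1c belongs to a family of genes for H3K9 demethylases, and its conditional knockout was confined to Treg per the genotype's name; the Cre driver, the tumour model and any treatment are not given in the sources used here. The titles call the assay CUT&RUN, where a nuclease is tethered to the mark by an antibody, while the protocol names a CUT&Tag kit, where a transposase takes the nuclease's place. Accessible DNA was mapped by ATAC-seq, which inserts adapters with a transposase, in 1 library of tumour Treg and 1 of spleen Treg, both JMJD1CWT. The question put to the H3K9me2 libraries was how the mark differs without Jmjd1c, and that put to the ATAC libraries was how Treg chromatin differs between tumour and spleen.

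Depth was 24774509 to 30313851 tags per H3K9me2 library, and 11293674 tags for tumour ATAC and 11068821 for spleen ATAC. The deposited values were peaks called in each library alone, so H3K9me2 was expressed as the percent of a window covered by peaks. The median over all protein-coding genes ran from 1.01% in WT replicate 1 to 3.96% in cKO replicate 2. In the headers, replicate 1 and replicate 3 of the cKO group carry an identical knockout number and may share a source. The name prefixes in the headers differ between the genotypes, so that any batch and the genotype cannot be told apart. Nothing in the labels says that replicates were separate animals, so the p-values measure the spread between these libraries, which may be technical. Of 6 Treg marker genes, 5 had ATAC peaks in both tissues, among them Foxp3 with 2 peaks in each, and Ctla4 had none in either.

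In tumour Treg none of the 10 genes differed in H3K9me2 between cKO and WT beyond the spread between libraries. Their mean coverage ran from 0.807% in Itgae to 7.19% in Itgb8, below the levels of most genes in 8 of the 10 and above them in Tgfbr1 (above 65.6% of all genes) and Itgb8 (above 89.9%). The groups overlapped in all 10 genes, where 13.0% of the 19018 genes tested had every cKO library above every WT library and 1.34% had every cKO library below. Of the 9 genes that reached the minimum mean of 1% over the 6 libraries, 0 passed limma's test at an adjusted p of 0.05, as in all genes, where 0 of 19018 passed (0.0%). At an unadjusted p of 0.05 limma called 0 of the 9 and 8.37% of all genes. The mean was higher in cKO in 7 of the 9, against 72.1% of all genes, and the median difference was 0.813 percentage points, against 1.26 over all genes. The direction of the 9 genes was thus near that of the whole annotation.

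**Figure D1:**
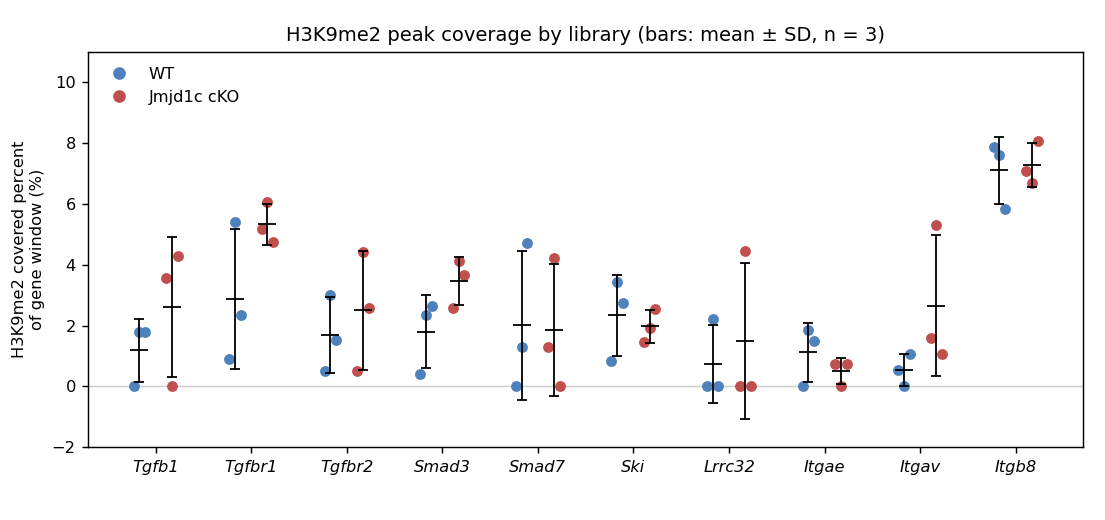
H3K9me2 covered percent of each gene window (vertical axis, %) in the 3 WT (blue) and 3 cKO (red) libraries of tumour Treg, with bars for the mean ± SD (n = 3). The groups overlap in all 10 genes, and Itgb8 lies between 5.84% and 8.09% in every library, above the other 9 genes of the same library.

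WT replicate 1 was the lowest library, alone or in a tie, in 8 of the 10 genes, and it was also the lowest over all genes. cKO replicate 2 was the highest library in 5 of the 10 genes and also the highest over all genes. The part of these library-wide levels in the differences below was not tested.

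Tgfb1 (chr7:25687002-25705077) encodes the ligand TGF-beta 1. Its window was covered to 3.57%, 0% and 4.28% in the cKO libraries 1, 2 and 3, against 0%, 1.78% and 1.78% in WT libraries 1, 2 and 3. A library without any peak stood in each group, so the groups overlapped, and the mean difference of 1.43 percentage points (SE 1.45) did not pass limma's test (adjusted p = 0.732). Leaving out single libraries moved the difference between 0.595 (without cKO replicate 3) and 2.74 (without cKO replicate 2).

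Lrrc32 (chr7:98489305-98501831) encodes GARP, which displays latent TGF-beta on activated Treg. It carried H3K9me2 peaks in 1 library of each group, 4.45% of its window in cKO replicate 2 and 2.22% in WT replicate 2, and none in the other 4 libraries. The adjusted p was 0.869 in limma (difference 0.741 percentage points, SE 1.47). The difference was 1.48 without cKO replicate 1 or 3, and 0.371 without WT replicate 1 or 3.

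Itgav (chr2:83722303-83806917) encodes the alpha-v chain that pairs with beta-8. Its window was covered to 1.59%, 5.32% and 1.06% in the cKO libraries 1, 2 and 3, against 0.530%, 0% and 1.06% in WT libraries 1, 2 and 3. cKO replicate 2 stood far above the other 5 libraries, and the groups met at the shared value of cKO replicate 3 and WT replicate 3. Itgav had the smallest p of the 9 genes tested (difference 2.13 percentage points, SE 1.37, unadjusted p = 0.160, adjusted p = 0.625 in limma). Without cKO replicate 2 its mean fell under the minimum and it was not tested.

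Itgb8 (chr12:119162803-119238276) encodes the beta-8 chain, the partner that makes the integrin an activator of latent TGF-beta. Its window was covered to 7.08%, 6.68% and 8.09% in the cKO libraries 1, 2 and 3, against 7.87%, 7.60% and 5.84% in WT libraries 1, 2 and 3. The libraries of both groups were interleaved (difference 0.177 percentage points, SE 1.86, adjusted p = 0.988 in limma). It had the highest coverage of the 10 genes in 6 of 6 libraries, with a mean of 7.19%. The sign of the difference turned under several settings, given in the closing section.

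The H3K9me2 peaks of Itgb8 also differed in score and fold from those of the other 9 genes. Itgb8 had 50 peaks over the 6 libraries with a median score of 10.5, where the score is the authors' value in tags of the peak's own library, while the other 9 genes together had 137 peaks with a median score of 5.5. Of those 137 peaks, 110 had a score of 6 or less, next to the calling threshold of 5 tags, against 1 of 50 in Itgb8. The headers give 6.494 to 7.814 expected tags per peak for the H3K9me2 libraries, so scores of 6 or less lie below that expectation. By library, 72.0% to 91.7% of the peaks of the 9 genes were at or below 6, against 22.5% to 32.9% of the whole lists. Conversely, the fold over the surrounding 10 kb, also the authors' value, had a median of 2.395 in Itgb8 and 4.59 in the other 9 genes, while the medians of the whole lists were 2.50 to 2.75. In fold, Itgb8 thus lay nearer to the whole lists than the other 9 genes did. Median scores of the whole lists were 8.0 to 9.5, between those of Itgb8 and of the other 9 genes. Itgb8 peaks thus held more tags at a lower fold over their surroundings, and peaks of the other genes held few tags at a higher fold. No test was made of this contrast between genes, which was noticed in these lists.

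**Figure D2:**
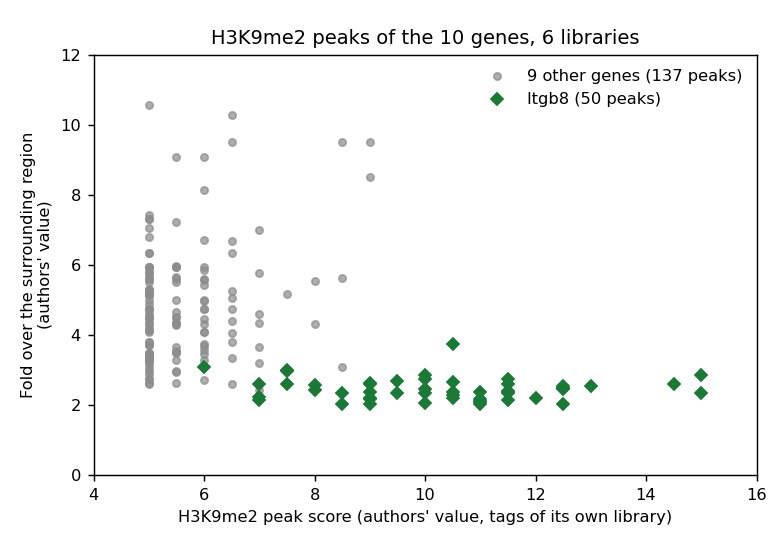
Score of each H3K9me2 peak (horizontal axis, tags of its own library) against its fold over the surrounding region (vertical axis), both the authors' values, for Itgb8 (50 peaks, green) and the other 9 genes (137 peaks, grey) over 6 libraries. Itgb8 peaks run from scores of 6 to 15 at folds of 2.02 to 3.73, while the other peaks gather at scores of 5 to 9.

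Of the Itgb8 peaks, 36 of 50 touched a peak of another library, and of those of the other genes 41 of 137. Of the Itgb8 window, 32.0% was covered in at least 1 library and 10.03% in at least 2. The next highest share covered in at least 2 libraries was 3.07%, in Tgfbr1. A more densely covered window also gives more overlap between libraries, so that the figures describe these lists and were not tested against that.

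**Figure D3:**
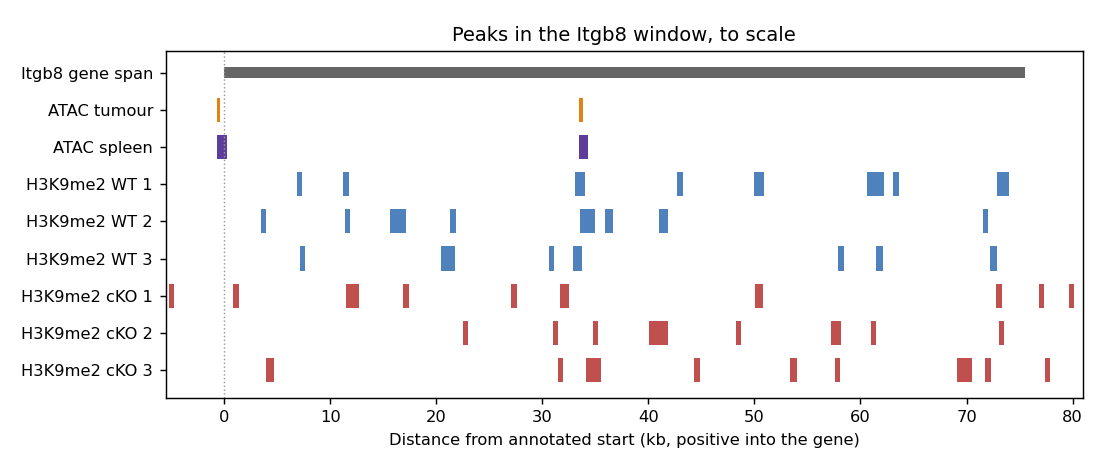
Map of the Itgb8 window with distance from the annotated start in kb (positive into the gene), showing the gene span, the ATAC peaks of tumour and spleen Treg and the H3K9me2 peaks of the 6 libraries, to scale. The 50 H3K9me2 peaks spread over the window in all 6 libraries, and both tissues have 2 ATAC peaks, at the start and inside the gene.

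Tgfbr1 (chr4:47353222-47414926) encodes the type I receptor kinase. Covered shares were 5.18%, 6.07% and 4.74% in the cKO libraries 1, 2 and 3, against 0.904%, 5.40% and 2.33% in WT libraries 1, 2 and 3. The cKO libraries were close together and WT replicate 2 lay among them, so the groups overlapped (difference 2.45 percentage points, SE 1.68, adjusted p = 0.651 in limma). Without WT replicate 1, the lowest library, the difference was 1.46 percentage points, and without WT replicate 2 it was 3.71.

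Tgfbr2 (chr9:116087695-116175363) encodes the type II receptor, which binds the ligand first. Its window was covered to 0.513%, 4.42% and 2.56% in the cKO libraries 1, 2 and 3, against 0.513%, 3.01% and 1.54% in WT libraries 1, 2 and 3. Each group spanned most of the range of the other (difference 0.813 percentage points, SE 1.42, adjusted p = 0.853 in limma), and without cKO replicate 2 the difference was -0.148.

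Smad3 (chr9:63646766-63757994) encodes the SMAD that the activated receptor phosphorylates. Its window was covered to 2.60%, 4.12% and 3.66% in the cKO libraries 1, 2 and 3, against 0.413%, 2.34% and 2.63% in WT libraries 1, 2 and 3. cKO replicates 2 and 3 lay above all WT libraries and cKO replicate 1 just below WT replicate 3, so the groups overlapped by these neighbours alone (difference 1.66 percentage points, SE 1.29, adjusted p = 0.667 in limma). Without WT replicate 1 the difference was 0.973 percentage points.

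Smad7 (chr18:75367365-75395935) encodes the inhibitory SMAD that blocks the receptor. H3K9me2 peaks took 1.30%, 4.24% and 0% of its window in the cKO libraries 1, 2 and 3, against 0%, 1.30% and 4.72% in WT libraries 1, 2 and 3. Both groups held 1 library without a peak and 1 above 4%, and the difference was -0.161 percentage points (SE 1.69, adjusted p = 0.988 in limma).

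Ski (chr4:155154075-155222535) encodes a repressor that binds SMAD complexes on DNA. Of its window, 1.45%, 1.92% and 2.55% was covered in the cKO libraries 1, 2 and 3, against 0.844%, 3.44% and 2.73% in WT libraries 1, 2 and 3. The cKO libraries lay between the lowest and the middle WT library (difference -0.366 percentage points, SE 1.22, adjusted p = 0.932 in limma).

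Itgae (chr11:73090505-73147449) was covered to 0.748%, 0% and 0.748% in the cKO libraries 1, 2 and 3, against 0%, 1.85% and 1.50% in WT libraries 1, 2 and 3. Its mean of 0.807% missed the minimum of 1%, so it was not tested in the main setting. It was tested with 10 kb flanks and with no minimum, where limma called 0 of the 10 genes. WT replicates 2 and 3 were the highest and WT replicate 1 had no peak, which left the groups overlapping.

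Around the annotated starts, H3K9me2 peaks were few, in shares near or below those at all starts. RefSeq promoter entries gave 8 starts for 7 of the 10 genes, with a pair of starts for Tgfbr1. Within 1 kb on both sides of the 8 starts, 3 of the 24 cKO pairs of library and start had a peak (12.5%), and 1 of the 24 WT pairs (4.17%). The pairs were the second Tgfbr1 start in cKO replicate 2 (32.3% of the 2 kb covered), Smad3 in cKO replicate 2 (41.0%), Itgb8 in cKO replicate 1 (6.40%) and Tgfbr2 in WT replicate 2 (39.5%). Each start was marked in at most 1 library within 1 kb, and over 21263 starts of the annotation 7.72% to 15.8% had a peak, depending on the library. Within 2 kb, the second Tgfbr1 start (chr4:47386216) was marked in cKO libraries 1, 2 and 3 (9.50%, 20.8% and 12.1% of the window) and in no WT library, a pattern met by 202 of the 21263 starts (0.95%). The peaks lay at different places: chr4:47387837-47389048, chr4:47386571-47387403 and chr4:47384199-47384699 in cKO libraries 1, 2 and 3. None of them overlapped another, and that of cKO replicate 3 lay on the other side of the start. The first Tgfbr1 start was marked in cKO libraries 2 and 3 (17.3% and 8.67%), and Ski in WT libraries 2 and 3 (1.60% and 12.5%). No test was made on these short windows.

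The ATAC lists held 27625 peaks in tumour Treg and 13078 in spleen Treg, and 59.7% of the tumour peaks did not overlap a spleen peak by at least 1 bp (tumour only). The calls differed in more than tissue: the tumour peaks were 322 bp wide and called from 10 tags, the spleen peaks 869 bp wide and called from 15. With 1 library per tissue there was no spread between replicates and no test. In bulk libraries, fewer cells with an open site and weaker opening per cell cannot be told apart.

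More ATAC peaks were called in these genes in tumour than in spleen, in shares close to those of the whole lists. The 10 genes held 46 tumour peaks and 22 spleen peaks, of which 27 tumour peaks (58.7%) were tumour only and 3 spleen peaks (13.6%) were spleen only. Over all peaks the shares were 59.7% and 14.9%. By gene, 8 of the 10 held at least 1 tumour-only peak, against 35.3% of all genes. Of the 10620 genes with windows in the members' length range of 22.5 to 121 kb, 41.6% did. That range is bounded by the members but not matched to their lengths. Windows of Tgfbr1, Tgfbr2, Smad3, Ski, Itgae, Itgav and Itgb8 were 66.9 to 121 kb long. The part of window length in these counts was not tested. Of the 10, 9 (all but Lrrc32) held a shared peak, against 44.1% of all genes and 53.9% of those in the length range. A spleen-only peak was held by 3 (Tgfbr2, Smad7 and Ski), against 5.62% and 5.72%. There were 4 or more tumour-only peaks in 4 genes (Tgfbr2, Smad3, Itgae and Itgav), against 2.97% of all genes and 3.14% of those in the length range. In lists of equal length these 4 genes had 1, 3, 3 and 2 tumour-only peaks, and with the stronger 50% of each list 1, 6, 3 and 3. More tumour than spleen peaks were found in 7 of the 10, against 33.4% of all genes and 39.6% of those in the length range. When the tumour list was shortened to the length of the spleen list by score, 14 tumour peaks were tumour only and 7 spleen peaks spleen only; 7 genes still had a tumour-only peak (13.9% of all genes) and 4 more tumour than spleen peaks (11.1%).

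**Figure D4:**
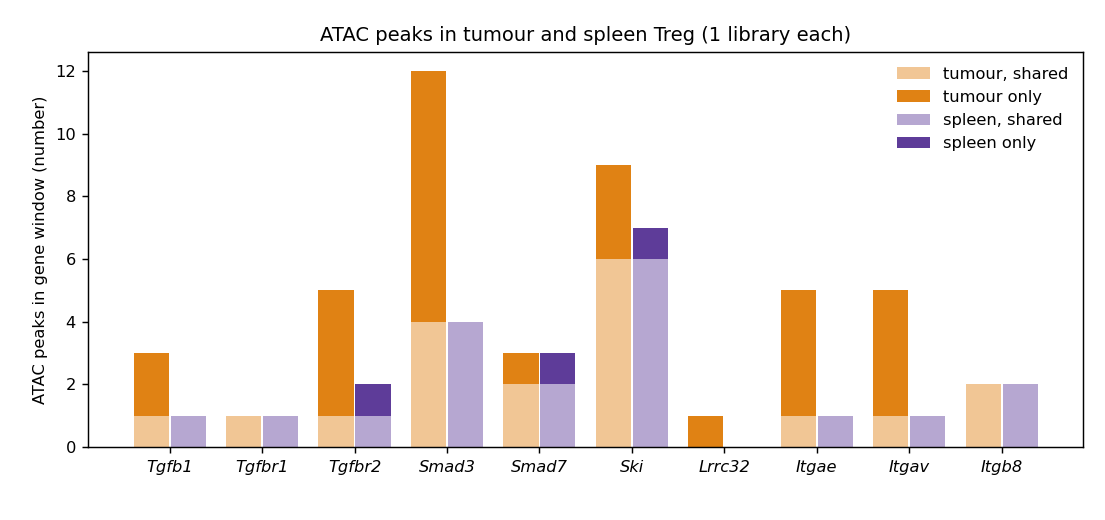
Number of ATAC peaks in each gene window (vertical axis) in tumour Treg (orange) and spleen Treg (purple), 1 library each, with pale bars for peaks shared by the tissues and dark bars for peaks of 1 tissue only. Smad3 has 12 tumour peaks, 8 of them tumour only, and Tgfbr1 and Itgb8 have none that are tumour only.

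Markers of other cells moved with the same contrast in part. Of 6 myeloid genes, Itgam, Cd14 and Spi1 held 7 tumour-only peaks together and 0 peaks in spleen, while Lyz2, Csf1r and Adgre1 had 0 in both tissues. The 3 dendritic genes held 12 tumour and 5 spleen peaks. The 4 stromal and endothelial genes held 8 tumour and 3 spleen peaks, with all 6 tumour-only peaks in Pecam1. Of the 5 CD8 and NK genes, Cd8a, Cd8b1, Ncr1 and Klrb1c had 0 in both, and Eomes had 1 shared peak. Among the B cell genes, Ms4a1 had 0 in both, Cd79a 1 shared peak, and Pax5 1 tumour-only and 1 spleen-only peak. The 4 conventional T cell genes held 7 tumour and 3 spleen peaks, and the 5 melanocyte and epithelial genes 4 and 4. The 6 Treg genes themselves held 23 tumour and 9 spleen peaks. Their part in the tumour-only peaks of the 10 genes was not tested. Of the 27 tumour-only peaks, 6 had a score under the spleen threshold of 15 tags (22.2%, against 37.1% of all tumour-only peaks). A spleen peak lay within 1738 bp, the spleen caller's minimum distance, of 5 of the 27. Of all 16481 tumour-only peaks, 1519 (9.22%) had one so near.

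At their starts, 6 of the 7 genes with an annotated start had an ATAC peak within 1 kb in tumour and 6 of 7 in spleen, against 48.8% and 37.2% of 17492 genes. Tgfb1 was the exception in both tissues. The 250 bases before the start are shown for 4 of these genes, chosen because they place the receptor starts, the signal carrier and the H3K9me2-rich Itgb8 beside their ATAC peaks. The sequences are RefSeq's, from build GRCm38.p6 (mm10), 5′ to 3′ along the gene's strand, with capitals for matches to any of 7 motifs, searched on both strands: the SMAD motif CAGAC, AP-1 (TGANTCA), the GC box GGGCGG, the CCAAT box CCAAT, ETS (CCGGAA), RUNX (TGTGGT) and forkhead (TGTTTAC). In capitals a match on the other strand reads as its reverse complement, and no matches overlap in these 4 sequences.
Tgfbr1 (chr4:47352972-47353221, plus strand): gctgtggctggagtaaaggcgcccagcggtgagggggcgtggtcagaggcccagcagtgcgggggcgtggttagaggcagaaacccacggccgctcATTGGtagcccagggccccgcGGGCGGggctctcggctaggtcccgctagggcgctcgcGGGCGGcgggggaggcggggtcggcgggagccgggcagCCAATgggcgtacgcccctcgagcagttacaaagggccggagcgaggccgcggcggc
Tgfbr2 (chr9:116175364-116175613, minus strand): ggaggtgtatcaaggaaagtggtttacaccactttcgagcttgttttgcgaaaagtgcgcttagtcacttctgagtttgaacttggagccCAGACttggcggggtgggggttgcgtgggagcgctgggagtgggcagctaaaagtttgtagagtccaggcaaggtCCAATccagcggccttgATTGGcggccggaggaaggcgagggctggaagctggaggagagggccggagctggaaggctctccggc
Smad3 (chr9:63757995-63758244, minus strand): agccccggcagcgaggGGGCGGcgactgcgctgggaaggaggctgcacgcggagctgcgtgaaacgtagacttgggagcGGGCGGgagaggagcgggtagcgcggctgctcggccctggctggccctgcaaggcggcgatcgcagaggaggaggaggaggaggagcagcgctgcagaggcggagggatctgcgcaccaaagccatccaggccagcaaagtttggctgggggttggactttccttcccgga
Itgb8 (chr12:119238277-119238526, minus strand): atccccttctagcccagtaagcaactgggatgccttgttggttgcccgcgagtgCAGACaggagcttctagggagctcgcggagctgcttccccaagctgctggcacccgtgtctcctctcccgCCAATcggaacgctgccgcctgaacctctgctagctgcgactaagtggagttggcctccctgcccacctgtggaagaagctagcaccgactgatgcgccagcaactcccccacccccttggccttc
In Tgfbr1 the capitals mark 2 GC boxes and 2 CCAAT boxes, and all 250 bases lay inside the ATAC peak of both tissues. Tgfbr2 had 1 SMAD match and 2 CCAAT boxes, Smad3 had 2 GC boxes, and Itgb8 had 1 SMAD match and 1 CCAAT box. Of all 21263 RefSeq promoters of this length, 40.9% held the SMAD motif, 42.6% the GC box and 35.4% the CCAAT box, so these motifs are common. Shares were 6.13% for AP-1, 15.0% for ETS, 12.4% for RUNX and 2.62% for forkhead, and none of these 4 matched in the 4 sequences. These are descriptions of letters and not binding sites.

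Tgfb1 had 3 tumour peaks and 1 spleen peak. Its highest tumour peak (chr7:25707488-25707810, score 163.5, within the top 1.46% of the tumour list) lay 2410 bp beyond the gene's end and was tumour only. The shared peak lay inside the gene (tumour chr7:25689193-25689515, score 99.5; spleen score 37.5), and the remaining tumour-only peak lay over the neighbouring gene B9d2. The start itself was free of ATAC peaks in both lists. Without the 5 kb flanks Tgfb1 had 0 tumour-only peaks.

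The activation genes split. Itgav had 5 tumour peaks and 1 spleen peak, 4 of them tumour only, of which 2 had scores under the spleen threshold of 15 (13 and 10.5) and another lay 425 bp from the spleen peak; the shared one covered the annotated start (tumour chr2:83724297-83724619, score 58.5; spleen chr2:83723723-83724591, score 19.0). Itgb8 had 2 peaks in each tissue and none of 1 tissue only, though with all peaks set to one width 1 in each tissue no longer overlapped. Its start-side peak was the highest in both (tumour chr12:119238651-119238973, score 50.5; spleen chr12:119238031-119238899, score 58.0), with 0 of the 250 bases shown above in the tumour peak and all 250 in the spleen peak, and the other, at the pseudogene Gm52023 inside the gene, was shared too. Lrrc32 had a single peak, tumour only and inside the gene (chr7:98491716-98492038, score 26.0), and none in spleen; that peak was absent from the shortened tumour list and from the stronger 50%.

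The receptors also split. Tgfbr1 had 1 peak in each tissue, over the start (tumour chr4:47352916-47353238, score 106.5, within the top 6.01% of the tumour list; spleen chr4:47352642-47353510, score 28.0), and no peak elsewhere in a window of 71.7 kb. Tgfbr2 had 5 tumour and 2 spleen peaks, but 1 and 2 in lists of equal length. At its start the tumour peak covered the start (chr9:116175075-116175397, score 63.5), while the spleen peak (chr9:116175487-116176355, score 28.0) began 89 bp further upstream. By the rule of 1 bp these count as tumour only and spleen only, though both tissues were open within 1 kb of the start, and the 250 bases shown above contain 34 bases of the tumour peak and 127 of the spleen peak. The other 3 tumour-only peaks of Tgfbr2, inside the gene, had scores of 11 to 13.5, under the spleen threshold of 15.

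Smad3 stood out by number. It held 12 tumour and 4 spleen peaks, 8 of them tumour only, a number reached by 85 genes, 0.388% of all. Of the 10620 genes in the members' length range, 15 (0.141%) reached it. Smad3 sets the upper end of that range, so none of these genes has a longer window and the share is not matched to its length. Every spleen peak was shared. The tumour-only peaks had scores from 19.0 to 61.5, all above the spleen threshold, and 7 of the 8 lay inside the gene. The highest tumour peak was shared (chr9:63706381-63706703, score 90.5) and so was the start-side peak (tumour chr9:63758090-63758412, score 35.5; spleen chr9:63757692-63758560, score 22.0). Smad3 has the longest window of the 10 genes (121 kb), and in the shortened tumour list it kept 3 tumour-only peaks, as many as Itgae. With a spleen peak within 1738 bp counted as shared it had 6.

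**Figure D5:**
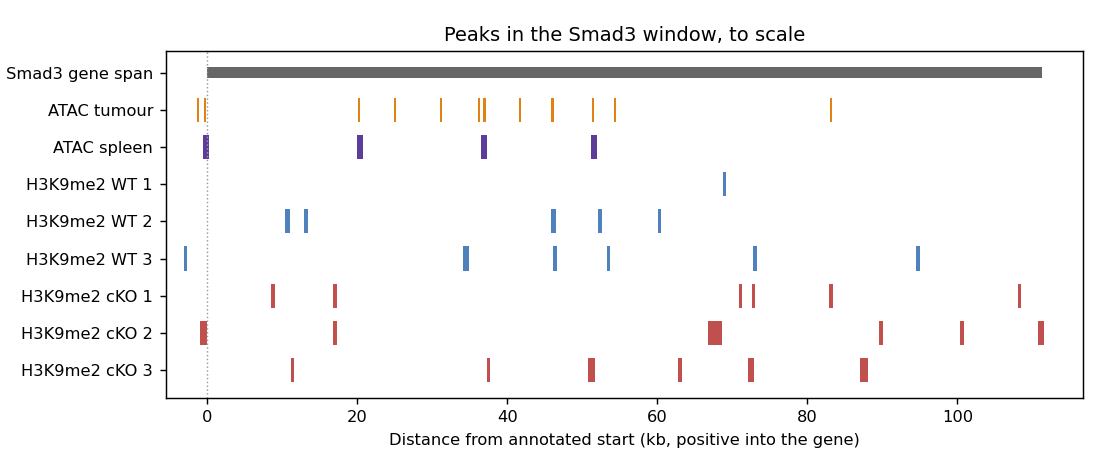
Map of the Smad3 window with distance from the annotated start in kb (positive into the gene), showing the gene span, the ATAC peaks of tumour and spleen Treg and the H3K9me2 peaks of the 6 libraries, to scale. The 12 tumour ATAC peaks lie mostly in the start-side part of the gene, 4 of them overlapping the 4 spleen peaks, and the H3K9me2 peaks of different libraries seldom coincide.

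The inhibitors were open in both tissues. Ski held 9 tumour and 7 spleen peaks, the most in spleen of the 10 genes, 6 of them shared in each; in lists of equal length it held 6 and 7. Its highest tumour peak, 628 bp beyond the start-side end of the gene (chr4:155223164-155223486, score 170.5, within the top 1.28% of the tumour list), had the highest tumour score of the 10 genes and was shared; by signal scaled to library depth the tumour-only Tgfb1 peak was higher (188.2 against 184.6). In spleen the highest was at chr4:155200479-155201347 (score 61.5), also shared. Smad7 held 3 peaks in each tissue, 2 of them shared, with the highest in tumour at chr18:75387395-75387717 (score 64.0) and in spleen at chr18:75377154-75378022 (score 48.0). Its spleen-only peak, over the lower-coordinate end of the gene (chr18:75366624-75367492, score 40.0), had no tumour counterpart within 1738 bp.

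Itgae, the induced integrin chain, held 5 tumour peaks and 1 spleen peak, 4 of them tumour only. The 4 lay inside the gene with scores from 17.0 to 44.0, the highest at chr11:73095517-73095839. The shared peak (tumour score 43.5, spleen score 29.5) lay at Haspin, a gene nested within Itgae. None of the tumour-only peaks had a spleen peak nearer than 6541 bp.

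Tumour ATAC peaks of the 10 genes coincided with H3K9me2 about as often as all tumour ATAC peaks. By library, 1 to 5 of the 46 tumour peaks (2.17% to 10.9%) were touched by an H3K9me2 peak, and 4.85% to 9.91% of all. A Smad3 peak was among those touched in 5 of the 6 libraries, but only WT replicates 2 and 3 touched the same one. Smad3 also held 12 of the 46 tumour peaks. WT replicate 1 had its single touched peak in Itgb8.

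The wider pathway was read from 50 further genes of TGF-beta release, reception, SMAD control and response, of which 49 were tested. Of these, 0 passed limma's test. A lower mean in cKO was found in 13, Id3 had equal means (1.44% in both groups), and the rest had a higher mean in cKO (72.1% of all genes did). The median difference was 1.15 percentage points, near the 1.26 of all genes. In 10 genes every cKO library lay above every WT library (13.0% of all genes), and in 1 gene below (1.34%). The 5 of the former with the smallest p were Strap, Acvrl1, Cdkn2b, Zfyve9 and Itgb3. Strap, whose product binds the receptors, was covered to 8.59%, 2.37% and 5.60% in cKO and 0% in all 3 WT libraries (unadjusted p = 0.0137, adjusted p = 0.534 in limma). Cdkn2b, the cell-cycle inhibitor that TGF-beta induces, had 13.5%, 21.4% and 30.2% in cKO and 11.5%, 3.40% and 8.88% in WT (adjusted p = 0.568 in limma). Ccn2, a secreted protein and TGF-beta target, was the 1 gene that lay lower, with 9.93%, 7.57% and 3.78% in cKO and 10.7%, 21.7% and 11.4% in WT (adjusted p = 0.568 in limma). These 3 genes separated the groups without passing the test.

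The remaining genes of that rule lay between these. Acvrl1, a type I receptor of the family, had 6.13%, 6.71% and 4.39% in cKO and 1.87% in each WT library (adjusted p = 0.565 in limma). Zfyve9, which presents SMADs to the receptor, had 11.2%, 9.13% and 9.96% in cKO and 5.24%, 6.34% and 5.25% in WT. Itgb3, an alternative partner of alpha-v, had 5.31%, 5.98% and 4.35% in cKO and 0.691%, 2.50% and 2.77% in WT, and the adjusted p of both was 0.568 in limma. As for the 10 genes, ATAC peaks were more numerous in tumour: 30 of the 50 had a tumour-only peak (35.3% of all genes) and 30 more tumour than spleen peaks (33.4%), 0 had more in spleen, and 6 had no peak at all. By peak, 74 of their 118 tumour peaks (62.7%) were tumour only, near the 59.7% of all tumour peaks. No share limited by window length is given for these genes. The most tumour-only peaks were 9 in Nedd4l and in Runx1, 6 in Nrp1 and in Itgb3, and 4 in Ltbp4 and in Furin. Spleen-only peaks were found in 7 genes (5.62% of all genes), 1 each in Nrp1, Itgb3, Tgfbr3, Tgif2, Pmepa1, Runx1 and Runx3.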

How the data were processed

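H3K9me2 was profiled in 6 libraries of tumour Treg (3 cKO, 3 WT) and open chromatin in 2 ATAC libraries (tumour, spleen); titles gave the groups and the replicate numbers. Tools in the submitters' processing notes, without roles, are Bowtie2 2.4.2, SAMtools 1.11, Trim Galore 0.6.6, deepTools, HOMER and Picard, and the build is mm10. Any move of ATAC reads to the Tn5 cut site: not given in the sources used here. HOMER findPeaks was run by the authors on single libraries, unpooled and without a control library, per the file headers. Each deposited peak has a tag signal brought to a common library total, a score counted in its own library's tags, and, against the 10 kb around it, a fold and a p-value, per the file headers. The deposited ATAC lists also hold a focus ratio, a fraction of tags, and the H3K9me2 lists a region size in bp (other unit); neither was used. The deposited H3K9me2 lists are shorter than their headers' totals (109589 to 178201 of 384612 to 468160 peaks), through a filter that no header states. Coverage by such peaks measures local enrichment, not the amount of the mark, and broad even domains can be missed.

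Peaks were merged within each library, and the covered percent of each gene window (span with 5 kb on both sides) was compared with limma 3.58.1 (R 4.3.3; empirical Bayes with trend; group as the only term) over the genes with a mean of 1% or more, with p-values adjusted by Benjamini-Hochberg and called under 0.05. The procedure was tested on simulated data with shifts larger than any difference seen in the 10 genes. That check does not show whether changes as small as those in the 10 genes would be found. ATAC peaks were shared at an overlap of 1 bp or more, and 1 library per tissue allows no test. The gene table lists no exons, so peaks are placed only within or outside gene spans. Promoter entries were found for 7 of the 10 genes; Lrrc32, Itgae and Smad7 were not matched. The members and lists were chosen with earlier results of these data known. All 10 genes were named; of the wider list, those with separated groups and the 5 smallest p in each direction, and the 5 (6 with ties) with most tumour-only peaks; ATAC peaks by position were the highest of each library in each gene and those at starts, and others are named where a count turns on them, chosen after their values were seen. Same-numbered cKO and WT libraries deviated together with r of 0.0757, 0.00504 and 0.0260 over genes, so the numbers were not taken as pairs. Scales, list lengths, scores, windows, overlaps, the replicate block and single libraries were varied.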

Additional observations from a re-analysis of the deposited data

How the results depend on the processing

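The H3K9me2 test called 0 genes in every setting run (scaling to genome-wide coverage, equal lists, stronger peaks, windows, no minimum, each library left out) except the arcsine square root scale, which called 1 gene, Gm14444, not a member; unadjusted p under 0.05 was met by 427 to 2197 genes. Leaving out each of the 6 libraries gave 0 calls in every case. The minimum of 1% was reached by 6 of the 10 genes with equal lists, by 1 with the stronger peaks, by 7 without cKO replicate 2 and by 8 without WT replicate 2, and the others have no value there. With the replicate number as a block, limma called 0 genes, and 1482 lay under an unadjusted p of 0.05. Adjusted p of the 9 members tested in the main setting ran from 0.486 (Itgav) to 1.0 over the settings in limma, with Itgae left out of this range.

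Differences that turned sign, in percentage points, were Tgfbr2 at -0.426 with equal lists and from -0.148 to 1.81 without single libraries; Smad7 at 0.216 with 10 kb flanks and from -1.36 to 1.20; Ski from -1.11 to 0.183; and Itgb8 at -0.762 scaled to genome-wide coverage, -0.214 with equal lists, -0.320 with the stronger 50% of peaks, -0.592 without flanks and -0.140 with 10 kb flanks, and from -0.455 to 0.561. The 1 gene tested with the stronger peaks was Itgb8. The cause was not tested.

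With ATAC lists of equal length, tumour-only peaks fell to 14, spleen-only peaks rose to 7 and genes with more tumour peaks fell to 4, with Tgfbr2 (1 against 2), Ski (6 against 7) and Itgb8 (1 against 2) then lower in tumour; counting peaks within 1738 bp as shared, a setting chosen after seeing the data, left 1 spleen-only peak. Within 2 kb of the starts, 8 cKO and 3 WT pairs of library and start had H3K9me2 peaks, out of 24 per group. No share over all starts is given for 2 kb, so these counts are not read as particular to the genes. With equal lists within 1 kb, 1 cKO and 1 WT pair had a peak (4.17% each). Among the other results, 98 H3K9me2 values kept their direction and side of the threshold. Of the ATAC counts, 50 stayed equal or changed by a small factor, while 10 moved further. Such a small change was that of the Smad3 tumour-only peaks, from 8 to 6 with the stronger 50% of each list. Most H3K9me2 peaks of 9 of the genes sat near the calling threshold (110 of 137 at a score of 6 or less). They also lay below the expected tags per peak in the headers, which limits what can be seen there. Depth was not varied, and its part in these low scores was not tested.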

Other observations

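Beyond the windows, within a further 50 kb on each side, Tgfb1 had 4 tumour peaks on the lower-coordinate side and 4 on the other, where the genes Ccdc97, Hnrnpul1 and Axl lie, with 2 and 3 of them tumour only. Tgfbr2 had 4 tumour peaks, 3 of them tumour only, on its start side, where no other protein-coding gene is annotated within that distance, and 0 beyond its end. Itgb8 had 0 ATAC peaks of either tissue on both sides, so that its 2 shared peaks stood alone over the whole stretch. Spleen-only peaks numbered 0 on every side of all 10 genes. Each side held only 0 to 2 spleen peaks, and 14.9% of all spleen peaks were spleen only, so this 0 is not read as a trait of the genes.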
